A study of Mus musculus with 12 samples.

Results

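The nuclear genes for mitochondrial ribosomal proteins were followed through the livers of 12 mice. Members were the protein-coding genes of the mouse annotation whose symbol is Mrpl or Mrps followed by a digit, with deposited estimated counts summed per gene and a mean of at least 10 counts over the 12 mice. All 78 annotated genes of that pattern passed, out of 36047 genes with a transcript in the files and 13967 genes that reached the same count minimum. They comprised 51 proteins of the large subunit, 26 of the small subunit, and Mrps36, which carries a ribosomal name but is known as a subunit of the 2-oxoglutarate dehydrogenase complex.

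The mice were male C57Bl/6J, 5 to 6 months old, and had eaten 1 of 4 diets for 7 days, with 3 mice a diet. By the paper, mice of all groups also received deuterium-labelled water during the diets, by injection and then in the drinking water. They were deprived of food for some hours before euthanasia. RF.Ctrl was the regular-fat control diet (fat at 18% of energy) and HF.Ctrl the high-fat control diet (60% of energy). RF.SAAR and HF.SAAR were the matching diets restricted in sulfur amino acids, in which methionine was lowered and glutamic acid made up the difference. Every diet lacked cysteine, the control diets included, so the SAAR contrasts compare methionine levels on a background without cysteine. The RNA came from frozen, crushed pieces of liver. The labels give the mice no numbers, so mice 1 to 3 of a group are names only, and nothing in the labels ties a mouse to a batch. The paper states that the mice were housed singly.

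The mitochondrial ribosome translates the mRNAs that the organelle's own genome encodes, all of which are for subunits of the respiratory chain and the ATP synthase. Its rRNAs come from mitochondrial DNA, while its proteins are encoded in the nucleus, made in the cytosol and imported. Compared with its bacterial ancestor it has lost rRNA and gained protein, so some members have bacterial homologs and others occur only in mitochondria. Liver is rich in mitochondria and depends on them for fatty acid oxidation, ureagenesis and gluconeogenesis.

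Estimated counts totalled 16203094 to 21230092 per mouse, of which the members took 0.19% to 0.254%. The 10 hepatocyte markers summed to 83682 to 109327 CPM (counts scaled to library size with TMM factors, the trimmed mean of M values), so the defining markers of the labelled tissue were abundant in every mouse. Their sums were 96316 to 109327 CPM in RF.Ctrl and 83682 to 91384 CPM in RF.SAAR mice, without overlap. On high fat they were 89451 to 102604 CPM in HF.Ctrl and 83860 to 94553 CPM in HF.SAAR mice. Averaged over fat, the hepatocyte markers Serpina1c and Fgb fell by 0.52 and 0.26 on the log2 scale on SAAR. The stellate marker Lrat fell by 0.60 and the cholangiocyte marker Spp1 fell by 0.46, while the endothelial marker Lyve1 rose by 0.55. These are single genes, and not every marker of their lists moved the same way. Higher on SAAR were 1 of 10 hepatocyte, 2 of 6 stellate, 1 of 5 cholangiocyte and 4 of 6 endothelial markers. The median log2 fold changes of these lists were -0.14, -0.095, -0.39 and 0.11. The part of these markers in the results below was not tested. Markers of pancreatic acinar cells, of which 14 of 15 were measured, stood apart in 5 mice: 1230 CPM in RF.Ctrl mouse 1, 1507 in HF.Ctrl mouse 1, 5443 in HF.Ctrl mouse 2, 3117 in HF.SAAR mouse 2 and 15018 in HF.SAAR mouse 3, against 38.3 to 77.8 CPM in the other mice. Of these 5 mice 4 had eaten a high-fat diet and none was an RF.SAAR mouse. Summed markers of Kupffer, endothelial and stellate cells ranged from 258 to 424, 216 to 256 and 221 to 297 CPM over all mice. Those of cholangiocytes ranged from 35.3 to 42.8 CPM over the SAAR mice and from 42.9 to 62.2 CPM over the Ctrl mice, without overlap. Lymphocyte markers ranged from 10.6 to 37.7 CPM over all mice. In whole liver, fewer cells of a type and less RNA per cell cannot be told apart.

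Promoters of members are known to carry sites for nuclear respiratory factors, ETS-family factors and YY1. RefSeq promoter windows on GRCm38.p6, from 250 bases before the start to 50 bases from it on, were found for 69 of the 78 members. None was listed for Mrpl4, Mrpl13, Mrpl15, Mrpl19, Mrpl38, Mrpl54, Mrps28, Mrps34 and Mrps35. Exact matches of 3 motifs were counted on both strands. The ETS or GABP-like letters CCGGAAG stood in the windows of 26 of the 69 members (37.7%), against 9.93% of all 27025 genes in the promoter table and 18.5% of the 10720 tested protein-coding genes with a window. The NRF1-like letters GCATGCGC stood in 8 members (11.6%), against 3.05% and 5.56%. The YY1-like letters AAGATGGCG stood in 8 members (11.6%), against 1.64% and 3.33%. At least 1 of the motifs was present in 36 members (52.2%), against 13.6% and 25.1%. Matches overlapped each other in 3 member windows. These are matches of letters and were not tested as binding sites.

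The Mrpl32 window is shown because Mrpl32 had the lowest p-value among members with a lower level on the SAAR diets and its window held 4 NRF1-like matches, 2 of them overlapping. The windows of Mrps18a, Mrps18b and Mrps18c are shown because these paralogs, all related to bacterial S18, differed in the motifs they held. In the classes used below, Mrps18c was counted as having a bacterial homolog. Despite that relation, Mrps18a and Mrps18b were counted as mitochondria-specific. Mrps18a held an ETS-like and a YY1-like match, Mrps18b NRF1-like and ETS-like matches, and Mrps18c an ETS-like match alone. Capitals mark the matched letters, and each run reads 5′ to 3′ along the gene's strand.
Mrpl32 (chr13:14612988-14613287, minus strand): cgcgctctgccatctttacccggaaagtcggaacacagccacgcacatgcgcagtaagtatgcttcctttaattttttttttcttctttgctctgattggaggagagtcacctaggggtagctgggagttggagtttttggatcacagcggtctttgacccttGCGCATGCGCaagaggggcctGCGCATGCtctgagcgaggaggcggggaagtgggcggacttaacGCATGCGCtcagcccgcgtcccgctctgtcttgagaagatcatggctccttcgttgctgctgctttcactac
Mrps18a (chr17:46110754-46111053, plus strand): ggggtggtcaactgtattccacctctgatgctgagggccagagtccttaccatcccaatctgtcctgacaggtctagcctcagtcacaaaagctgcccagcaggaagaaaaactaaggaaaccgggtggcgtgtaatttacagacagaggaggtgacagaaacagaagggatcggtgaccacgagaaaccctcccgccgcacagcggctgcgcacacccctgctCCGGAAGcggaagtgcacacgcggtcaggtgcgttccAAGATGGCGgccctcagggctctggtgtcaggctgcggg
Mrps18b (chr17:35916391-35916690, minus strand): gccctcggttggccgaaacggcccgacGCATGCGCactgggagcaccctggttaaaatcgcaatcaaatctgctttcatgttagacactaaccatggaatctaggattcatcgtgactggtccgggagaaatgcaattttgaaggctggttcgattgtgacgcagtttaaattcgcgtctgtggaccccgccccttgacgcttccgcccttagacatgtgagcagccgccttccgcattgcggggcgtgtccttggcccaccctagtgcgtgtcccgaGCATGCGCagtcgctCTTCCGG
Mrps18c (chr5:100798509-100798808, plus strand): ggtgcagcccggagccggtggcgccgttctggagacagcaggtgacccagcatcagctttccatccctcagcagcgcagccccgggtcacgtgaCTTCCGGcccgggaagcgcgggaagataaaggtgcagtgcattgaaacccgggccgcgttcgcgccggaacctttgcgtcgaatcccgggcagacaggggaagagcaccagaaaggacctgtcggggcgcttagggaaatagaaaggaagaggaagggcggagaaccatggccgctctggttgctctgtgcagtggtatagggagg

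Members often lie head to head with another gene. Within 1000 bases, 30 of the 78 members (38.5%) had the start of a tested protein-coding gene on the opposite strand, divergent or overlapping at the 5′ ends, against 13.1% of the 13627 protein-coding genes tested. Several of these neighbours also act in mitochondria. Mrps12, whose protein lies in the decoding region, started 172 bases from Sars2, the mitochondrial seryl-tRNA synthetase. Mrpl43 overlapped the start of Twnk, the mitochondrial DNA helicase, Mrpl36 that of Ndufs6 and Mrpl47 that of Ndufb5, both subunits of complex I. Mrpl46 and Mrps11 shared their start region with each other, and Mrpl32 started 75 bases from Psma2, a proteasome subunit.

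All members were transcribed in every mouse. Levels between genes are compared in TPM, in which counts are scaled by transcript length. The median member had a mean of 30.4 TPM over the 12 mice, and 77 of the 78 members lay above the median protein-coding gene tested, which stood at 5.41 TPM. Cytosolic ribosomal proteins (77 genes, median 406 TPM) and nuclear subunits of the respiratory chain (78 genes, median 198 TPM) were expressed at higher levels. Among members, those of the large subunit with a bacterial homolog had the highest class median (41.1 TPM, n = 29), followed by those of the small subunit with a bacterial homolog (30.8 TPM, n = 16). The mitochondria-specific members had medians of 28.9 TPM in the large subunit (n = 22) and 20 TPM in the small subunit (n = 10). The classes overlapped widely.

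Mrpl52 (mean 132 TPM), Mrps21 (115 TPM), Mrpl14 (113 TPM), Mrpl42 (100.4 TPM) and Mrpl33 (82.2 TPM) were the most abundant transcripts. Mrpl52 stood at 128, 142 and 109 TPM in RF.Ctrl mice 1 to 3, at 138, 134 and 114 TPM in RF.SAAR mice, at 127, 124 and 105 TPM in HF.Ctrl mice and at 136, 178 and 144 TPM in HF.SAAR mice. In TPM the regular-fat groups overlapped, while every HF.SAAR mouse lay above every HF.Ctrl mouse, with HF.SAAR mouse 2 highest. In TMM-scaled CPM the high-fat groups overlapped as well. HF.SAAR mice 1 and 3, at 22.4 and 23.2 CPM, lay between HF.Ctrl mouse 3, at 19.9, and HF.Ctrl mouse 1, at 27.8. HF.SAAR mouse 2 was again highest. At the other end were Mrpl45 (9.60 TPM), Mrpl47 (9.28 TPM), Mrps30 (8.17 TPM), Mrpl23 (5.88 TPM) and Mrpl19 (4.83 TPM). Mrps30 is named for the small subunit but sits in the large one. These are levels of mRNA, and no protein is measured in the files used here.

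**Figure D1:**
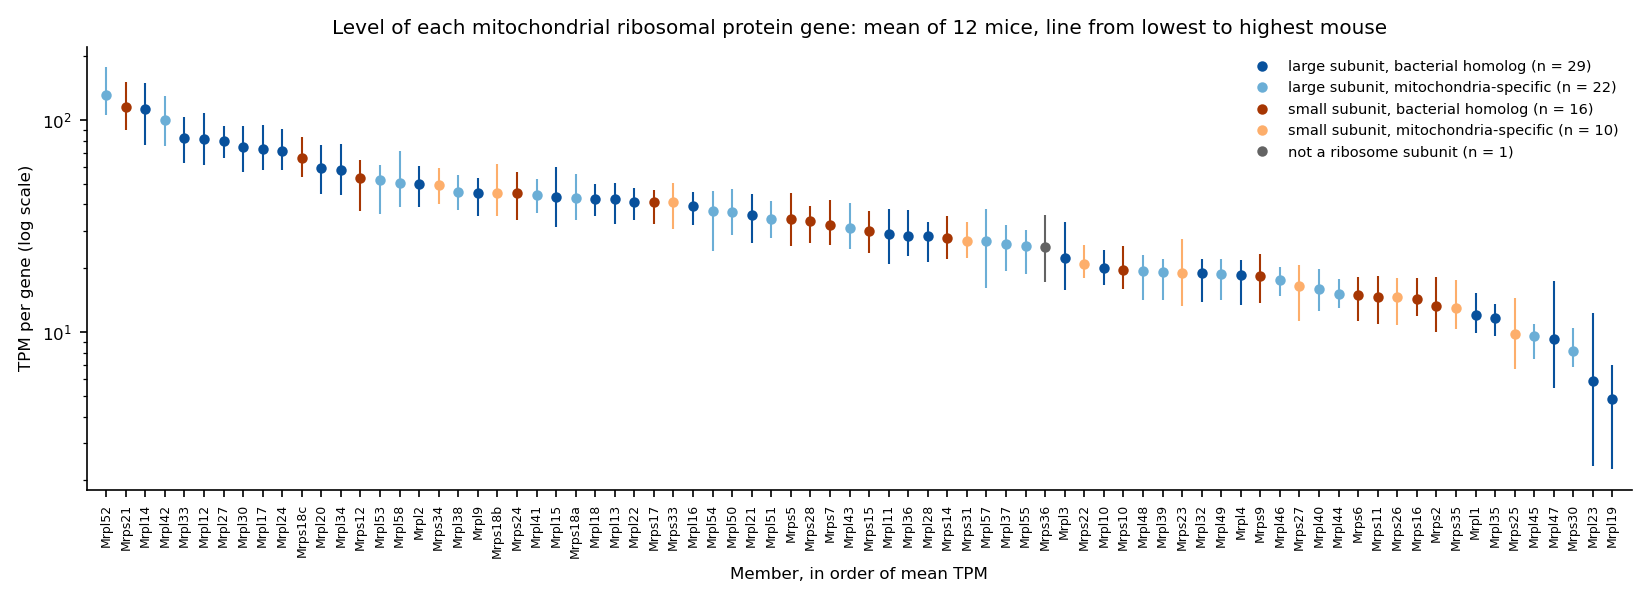
Mean TPM of each of the 78 members over 12 mice on a log scale, in descending order, with a line from the lowest to the highest mouse and colour by subunit class. Levels run from 132 TPM for Mrpl52 to 4.83 TPM for Mrpl19, and the classes are interspersed.

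Counting could be split between near-identical sequences. Of the 78 members, 19 shared no 31-base stretch with a transcript of another gene, and 25 shared more than 10% of their 31-base stretches. The largest shares were those of Mrpl53 (84.4%, with Gm42688), Mrps34 (73.8%, mostly with Mapk8ip3) and Mrps25 (68.9%, with Nr2c2), so the levels of these 3 are uncertain. Mrpl23 shared 10.3% with its processed copy Mrpl23-ps1, which had a mean of 399 estimated counts against 54.2 for Mrpl23 itself, and its values below are uncertain for that reason. Transcripts annotated as coding held a median of 95.9% of a member's counts, but under 80% in 9 members. In Mrps26, 67.0% of the counts fell on a transcript with a retained intron. In Mrpl15, 31.4% fell on a transcript without an annotated reading frame.

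The SAAR question asks whether restricting sulfur amino acids moved the mitochondrial ribosome at the mRNA level, within each fat level and averaged over both. No member was called at an adjusted p under 0.05 in edgeR's quasi-likelihood test, adjusted over all 13967 genes. That held for RF.SAAR against RF.Ctrl, where 1.57% of all genes tested were called, for HF.SAAR against HF.Ctrl, where 2.09% were called, and for SAAR against Ctrl averaged over fat, where 7.29% (1018 genes) were called. DESeq2, run on the same counts, called none in the first 2 and Mrpl15 in the averaged comparison.

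Without adjustment, 3 members had p under 0.05 in RF.SAAR against RF.Ctrl (1 higher, 2 lower), beside 14% of all genes. There were 3 in HF.SAAR against HF.Ctrl (2 higher, 1 lower), beside 12.8%, and 5 in the averaged comparison (3 higher, 2 lower), beside 20.8%. As a share of 78 these counts lie below the share of all genes. The median log2 fold change of the members was -0.046 on regular fat (33 higher, 45 lower), 0.013 on high fat (44 higher, 34 lower) and 0.0023 averaged over fat (40 higher, 38 lower). The medians of all genes tested were -0.0020, -0.000089 and -0.0037. Leaving out 1 mouse turned the sign of each member median: to 0.0058 and 0.040 on regular fat without RF.Ctrl mouse 1 or RF.SAAR mouse 1, and to -0.079 and -0.072 on high fat without HF.Ctrl mouse 3 or HF.SAAR mouse 2. Averaged over fat it was -0.019 without RF.Ctrl mouse 3, -0.059 without RF.SAAR mouse 2, -0.051 without HF.Ctrl mouse 3 and -0.045 without HF.SAAR mouse 2. Small and large subunit members had medians of -0.019 (11 of 26 higher) and 0.012 (28 of 51 higher) averaged over fat.

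The spread was small enough to bound most of the differences. Averaged over fat, the 95% interval of the log2 fold change lay between -1 and 1, a 2-fold change either way, for 77 of 78 members, and between -0.5 and 0.5 for 73. The one exception to the wider limit was Mrpl23. Within a fat level the wider limit also held for 77 of 78 members on regular fat and on high fat.

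**Figure D2:**
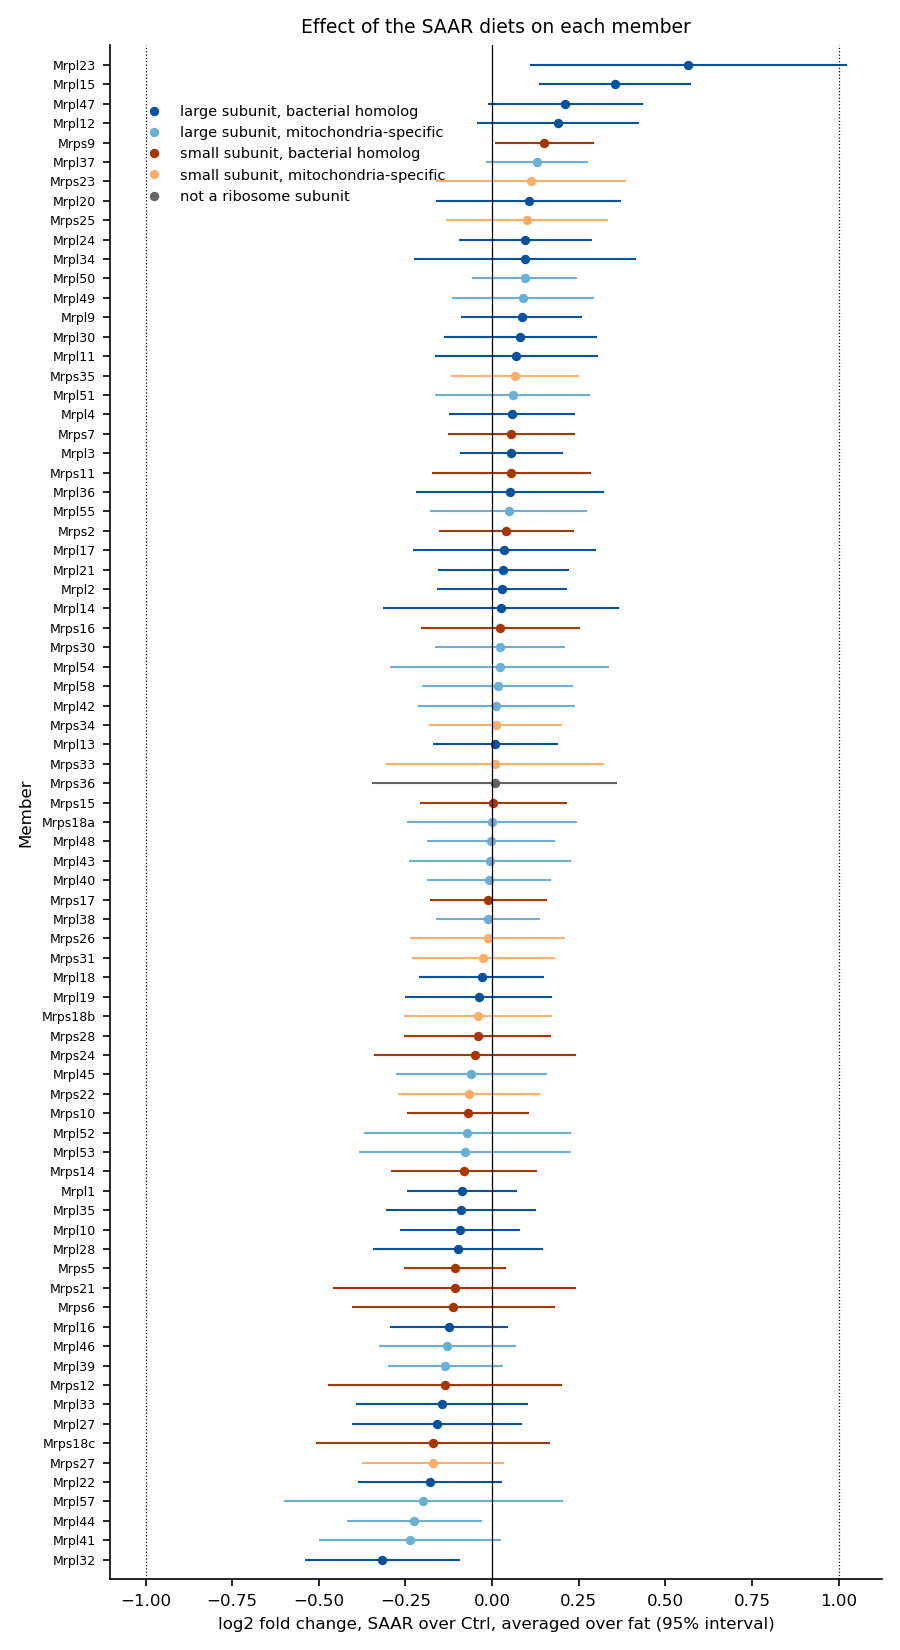
Log2 fold change of each member for SAAR against Ctrl averaged over fat, with 95% intervals from edgeR and colour by subunit class; dotted lines mark 2-fold changes. The points run from -0.32 for Mrpl32 to 0.57 for Mrpl23, and the interval of every member but Mrpl23 lies between the dotted lines.

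Mrpl15 (GRCm38 chr1:4773206-4785739, minus strand), a large-subunit protein with a bacterial homolog, came closest to a call. Its TMM-scaled CPM were 45.2, 46.0 and 39.0 in RF.Ctrl mice 1 to 3 and 45.9, 64.0 and 52.1 in RF.SAAR mice. On high fat they were 44.3, 53.0 and 38.1 in HF.Ctrl mice and 59.2, 65.1 and 53.8 in HF.SAAR mice. The 3 HF.SAAR mice were above the 3 HF.Ctrl mice, while RF.SAAR mouse 1 lay among the RF.Ctrl mice. The difference averaged over fat was 0.35 ± 0.10 (log2 fold change ± SE, 1.28-fold), with an adjusted p of 0.0518 in edgeR. It was past the threshold in DESeq2 (adjusted p = 0.0166) and with coding transcripts alone (0.0414), and short of it with offsets for transcript length (0.163); over all alternatives the adjusted p ran from 0.00137 to 0.163.

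Mrpl32 (chr13:14608184-14613165, minus strand), a zinc-binding large-subunit protein that is matured by the mitochondrial m-AAA protease, had the lowest p among lower members. Its CPM were 24.9, 19.0 and 21.1 in RF.Ctrl mice, 16.1, 20.8 and 18.5 in RF.SAAR mice, 24.5, 26.0 and 21.2 in HF.Ctrl mice and 15.7, 21.1 and 17.5 in HF.SAAR mice. HF.SAAR mice were all below HF.Ctrl mice, by a narrow margin, and the regular-fat groups overlapped. The averaged difference was -0.32 ± 0.10 (adjusted p = 0.0886, edgeR) and was called without HF.SAAR mouse 2 (adjusted p = 0.0449, with a range of 0.0449 to 0.326 over the alternatives).

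Mrpl44 (chr1:79776018-79781445, plus strand), whose protein has a ribonuclease III-like fold, gave CPM of 20.3, 18.6 and 21 in RF.Ctrl mice, 14.2, 20.8 and 17.6 in RF.SAAR mice, 20, 21.6 and 19.7 in HF.Ctrl mice and 16.5, 17.2 and 17.2 in HF.SAAR mice. The high-fat groups did not overlap, and RF.SAAR mouse 2 was as high as the controls. The averaged difference was -0.22 ± 0.09 (adjusted p = 0.173, edgeR) and was called without RF.SAAR mouse 2 (adjusted p = 0.0498, with a range of 0.0498 to 0.693 over the alternatives).

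Mrpl23 (chr7:142532686-142540747, plus strand), whose protein lies at the exit of the peptide tunnel, had the widest spread. Its CPM were 1.49, 2.35 and 2.25 in RF.Ctrl mice, 1.93, 3.02 and 2.92 in RF.SAAR mice, 2.46, 3.45 and 1.95 in HF.Ctrl mice and 5.42, 4.80 and 3.20 in HF.SAAR mice. HF.SAAR mice lay above every RF.SAAR mouse but HF.SAAR mouse 3 was below HF.Ctrl mouse 2. The averaged SAAR difference was 0.57 ± 0.21 (adjusted p = 0.139, edgeR), on low counts shared with the processed copy.

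Mrps9, at the decoding side of the small subunit, differed by 0.15 ± 0.07 averaged over fat (adjusted p = 0.215, edgeR), and Mrpl41, a mitochondria-specific large-subunit protein, by -0.24 ± 0.12 (adjusted p = 0.302). On regular fat alone Mrpl16, a protein near the peptidyl transferase centre, had the lowest p (-0.29 ± 0.11, adjusted p = 0.255), and all RF.SAAR mice (28.5, 35.9 and 31.4 CPM) lay below the RF.Ctrl mice (38.5, 41.5 and 37.0 CPM). On high fat the corresponding groups overlapped, and the interaction of Mrpl16 did not pass the test (0.33 ± 0.16, adjusted p = 1). The other members of lowest p on regular fat were Mrpl47 (0.22, adjusted p = 0.580) in the higher direction and Mrpl41 (-0.38, adjusted p = 0.349) and Mrps27, a pentatricopeptide repeat protein (-0.25, adjusted p = 0.451), in the lower. On high fat they were Mrpl37 (0.15, adjusted p = 0.582) and, lower, Mrpl10 (-0.18, adjusted p = 0.577).

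Members with tasks beyond the ribosome, or with a place that their name does not tell, did not pass the test either. Mrpl12, which also binds the mitochondrial RNA polymerase, differed by 0.19 ± 0.11 averaged over fat (adjusted p = 0.352, edgeR). Mrpl58, a peptidyl-tRNA hydrolase built into the large subunit, differed by 0.016 ± 0.10. Mrps36 differed by 0.0073 ± 0.16 and Mrps30 by 0.023 ± 0.09. The paralogs Mrps18a, which sits in the large subunit, Mrps18b and Mrps18c differed by 0.0009 ± 0.11, -0.041 ± 0.10 and -0.17 ± 0.16. The adjusted p of these members other than Mrpl12 ran from 0.605 to 0.998.

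On TPM the same mice looked different. The members summed to 2715, 2897 and 2575 TPM in RF.Ctrl mice, 3029, 3355 and 2995 TPM in RF.SAAR mice, 2544, 2532 and 2431 TPM in HF.Ctrl mice and 3206, 3264 and 3312 TPM in HF.SAAR mice. Every SAAR mouse lay above every Ctrl mouse, with group means of 2729 ± 161, 3126 ± 199, 2503 ± 62.2 and 3261 ± 53.3 TPM (SD, n = 3). The summed TMM-scaled CPM of the same members overlapped among all groups, at 2183 ± 106, 2155 ± 287, 2255 ± 319 and 2302 ± 203 CPM. Of single members, 19 of 78 (24.4%) had TPM higher in all 6 SAAR than in all 6 Ctrl mice, and 0 had it lower, beside 10.1% and 0.258% of all genes tested. In TMM-scaled CPM 0 of 78 were without overlap in either direction, beside 1.98% of all genes higher and 2.47% lower.

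Quantities that differ between these scales moved with the diet as well. The TMM factor ranged from 0.863 to 1.0 over the Ctrl mice and from 0.981 to 1.11 over the SAAR mice. The effective transcript length weighted by TPM ranged from 960 to 1048 bases over the Ctrl mice and from 1006 to 1128 bases over the SAAR mice. Over all genes tested, the median log2 deviation in TPM ranged from -0.39 to -0.0023 over the Ctrl mice and from -0.057 to 0.27 over the SAAR mice. Its mean was -0.142 over the 6 Ctrl and 0.144 over the 6 SAAR mice. For the members the same means were -0.140 and 0.144, about those of all genes. Relative to library size alone, without TMM, the member median was 0.17 averaged over fat while the median of all genes was 0.163. The part of each in the TPM difference was not tested.

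**Figure D3:**
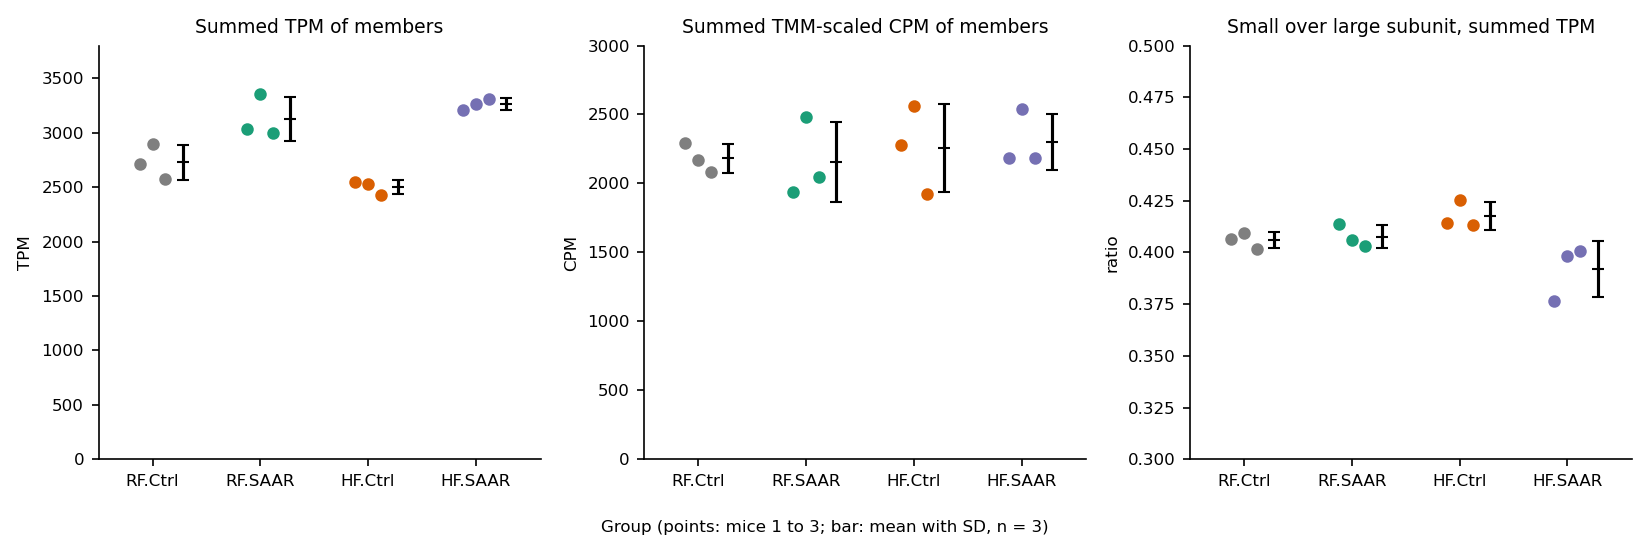
Summed TPM of the 78 members, their summed TMM-scaled CPM and the ratio of small to large subunit TPM (axis from 0.3 to 0.5), per mouse, with mean and SD of 3 mice a group. The 6 SAAR mice lie above the 6 Ctrl mice in TPM (2995 to 3355 against 2431 to 2897), the groups overlap in CPM, and HF.SAAR mice have the lowest ratios.

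The balance of the subunits was close to constant. Summed small-subunit TPM over summed large-subunit TPM was 0.407, 0.409 and 0.402 in RF.Ctrl mice, 0.414, 0.406 and 0.403 in RF.SAAR mice, 0.414, 0.425 and 0.413 in HF.Ctrl mice and 0.376, 0.398 and 0.401 in HF.SAAR mice. HF.SAAR mice lay below HF.Ctrl mice without overlap (0.392 ± 0.013 against 0.418 ± 0.0066, SD, n = 3), and the regular-fat groups overlapped.

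The fat question compares the high-fat with the regular-fat diets. In edgeR 0 of 78 members were called for HF.Ctrl against RF.Ctrl, HF.SAAR against RF.SAAR and HF against RF averaged over diet, beside 0%, 0.0501% and 0.043% of all genes. DESeq2 called none of them either. Without adjustment 1, 2 and 3 members had p under 0.05, all higher, beside 3.72%, 5.67% and 5.93% of all genes. The members' medians were 0.053 (51 of 78 higher), 0.12 (62 of 78) and 0.077 (66 of 78), against 0.00029, 0.0071 and 0.0029 for all genes. Without HF.Ctrl mouse 2 the first of these turned to -0.064 (24 of 78 higher).

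Pancreatic acinar signal was uneven between these groups, and most of the 5 mice with the highest signal had eaten a high-fat diet. Acinar signal and fat were thus partly confounded, and the part of acinar signal in the medians was not tested. With the acinar signal as a covariate, the member median for HF against RF averaged over diet was -0.046 (33 of 78 higher), and without the 5 mice of highest acinar signal -0.063 (23 of 78 higher). The sign turned in these 2 fits, of which the second was chosen after seeing the data. It was positive in the other alternatives, at 0.014 with library size alone and 0.015 without HF.Ctrl mouse 2.

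Mrpl23 (0.57 ± 0.21, adjusted p = 0.667), Mrps25 (0.26 ± 0.11, adjusted p = 0.754) and Mrpl3 (0.16 ± 0.07, adjusted p = 0.758, edgeR) had the lowest p in the averaged fat comparison. Mrpl3, which reaches into the peptidyl transferase centre, gave CPM of 22.4, 21.8 and 24.7 in RF.Ctrl mice, 24.4, 25.3 and 24.5 in RF.SAAR mice, 26.1, 29.5 and 24.4 in HF.Ctrl mice and 26.3, 26.8 and 27.2 in HF.SAAR mice. The groups of each pair lay close together, and only HF.SAAR stood wholly above RF.SAAR. Mrps25 shared most of its sequence stretches with Nr2c2, as given above. In the lower direction Mrps10 had the lowest p (-0.12 ± 0.08, adjusted p = 0.953), followed by Mrpl38 (-0.070 ± 0.07) and Mrpl43 (-0.093 ± 0.11).

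In HF.SAAR against RF.SAAR, Mrpl40 (0.25 ± 0.12, adjusted p = 0.880, edgeR) and Mrpl13 (0.25 ± 0.12, adjusted p = 0.886) followed Mrpl23 among the higher members, and Mrps10 (-0.12), Mrps26 (-0.15) and Mrpl38 (-0.10) had the lowest p among the lower ones. In HF.Ctrl against RF.Ctrl, Mrpl9 (0.23 ± 0.12) and Mrps6 (0.30 ± 0.19) followed Mrpl3, each at an adjusted p of 1. The lower members of that comparison with the lowest p were Mrpl16 (-0.15 ± 0.11), Mrpl55 (-0.15 ± 0.15) and Mrps10 (-0.12 ± 0.12).

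Whether the SAAR effect depended on fat was tested by the interaction of both factors. In edgeR 0 of 78 members were called, beside 0.00716% of all genes (1 gene), and 0 were at an unadjusted p under 0.05, beside 3.16%. DESeq2 called none. The median of the interaction was 0.061, with 49 of 78 members above 0, and it turned to -0.0071 without RF.SAAR mouse 1, -0.041 without HF.Ctrl mouse 3 and -0.023 without HF.SAAR mouse 2. The 95% interval of the interaction lay between -1 and 1 for 76 of 78 members. Among positive values Mrpl13 (0.28 ± 0.17) and Mrpl40 (0.27 ± 0.16) followed Mrpl16, and among negative values Mrps26 (-0.30 ± 0.21), Mrps18b (-0.22 ± 0.20) and Mrpl10 (-0.18 ± 0.16) had the lowest p.

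Members tended to lie on the same side of their means within a mouse, in mice of different diets. In HF.Ctrl mouse 2, 76 of 78 members were above their own mean over the 12 mice, in RF.SAAR mouse 2 71 and in HF.SAAR mouse 2 70. In RF.SAAR mouse 1 only 2 of 78 were above it, in HF.Ctrl mouse 3 5 and in RF.SAAR mouse 3 12. The median log2 deviation of the members from their own means was -0.20, 0.16 and -0.13 in RF.SAAR mice 1 to 3 and 0.053, 0.21 and -0.19 in HF.Ctrl mice. The 4 group means of that median ran from -0.055 in RF.SAAR to 0.054 in HF.SAAR, closer together than the single RF.SAAR or HF.Ctrl mice.

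Cytosolic ribosomal proteins and respiratory chain subunits leaned the same way in the mice at the extremes. In RF.SAAR mouse 1 their medians were -0.12 and -0.31, in HF.Ctrl mouse 3 -0.56 and -0.31, in RF.SAAR mouse 2 0.20 and 0.14, in HF.Ctrl mouse 2 0.11 and 0.21 and in HF.SAAR mouse 2 0.47 and 0.35. Of the 3 mice with the highest member medians, HF.Ctrl mouse 2 and HF.SAAR mouse 2 also had high acinar signal, while RF.SAAR mouse 2, at 77.8 CPM, did not. HF.SAAR mouse 3, with the most acinar signal, had a member median of -0.014. With offsets for transcript length the lowest and highest member medians were again those of RF.SAAR mouse 1, at -0.20, and HF.Ctrl mouse 2, at 0.20.

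**Figure D4:**
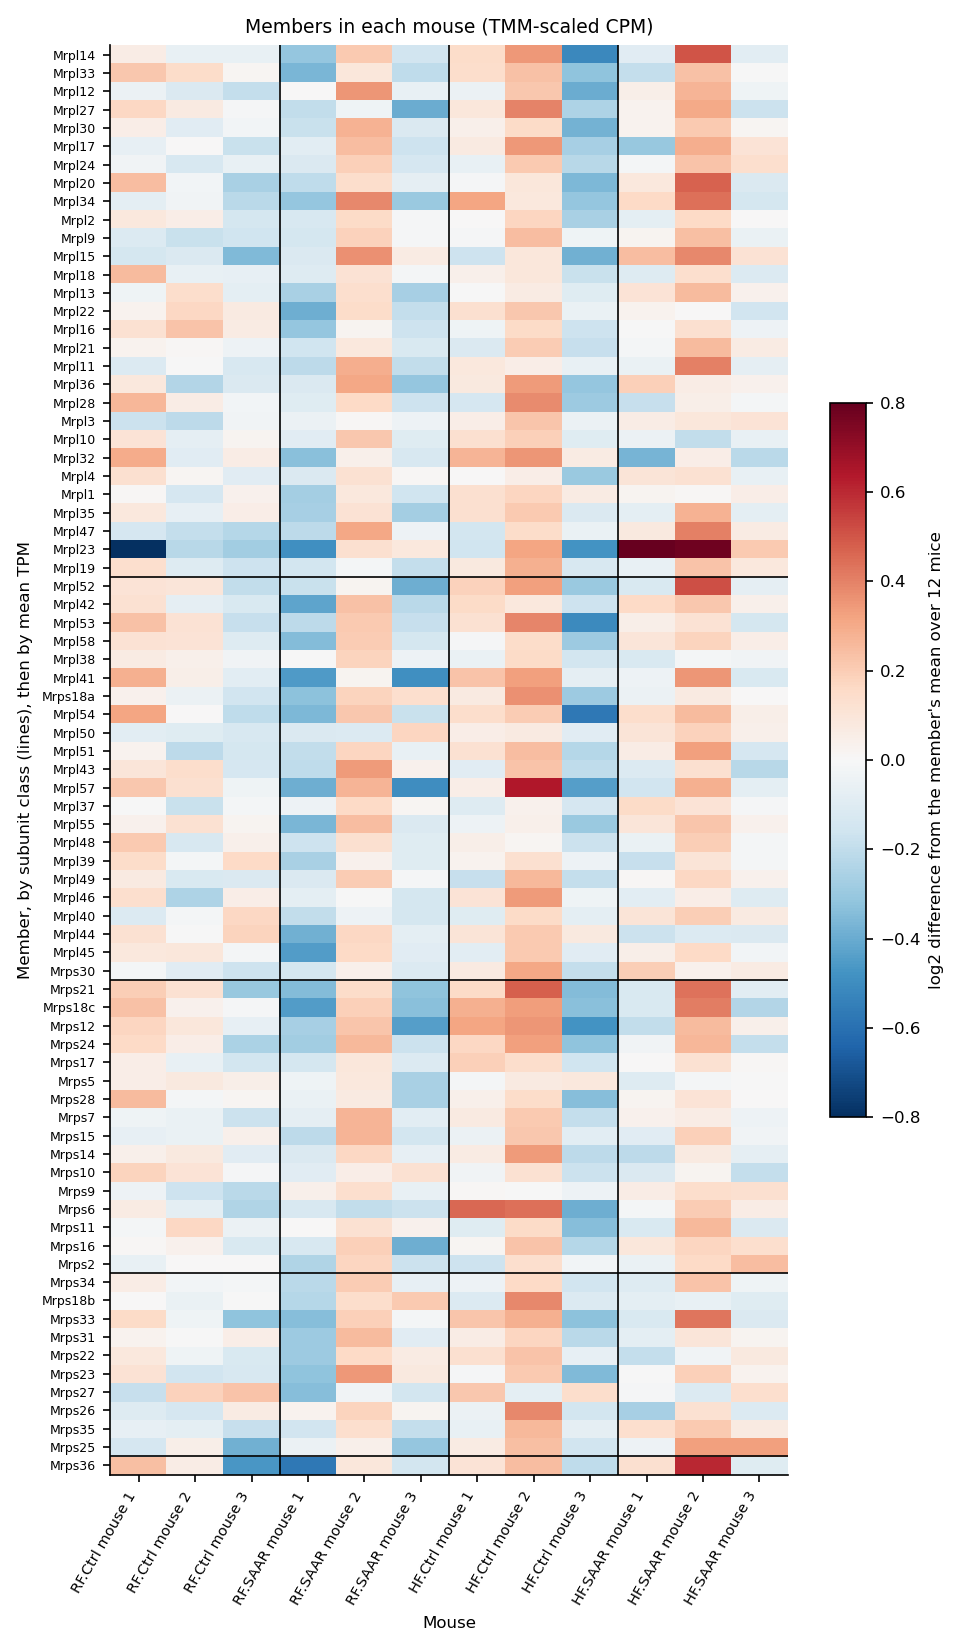
Log2 difference of each member in each mouse from its own mean over 12 mice (TMM-scaled CPM, colour scale from -0.8 to 0.8), with members grouped by subunit class. Members lean to the same side within some single mice: HF.Ctrl mouse 2 is above the mean in 76 of 78 members and RF.SAAR mouse 1 in 2.

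Other genes of mitochondrial translation gave few calls. In the averaged SAAR comparison (edgeR, adjusted over all genes), 0 of 5 mitoribosome subunits named outside the Mrp series and 0 of 16 mitochondrial translation factors were called. Of 26 assembly factors tested, Ddx28, a helicase of the large subunit's assembly, rose by 0.29 ± 0.08 (adjusted p = 0.0495). Of 20 mitochondrial aminoacyl-tRNA synthetases, Nars2, which charges asparagine, fell by 0.40 ± 0.08 on the log2 scale (adjusted p = 0.00704). Its CPM were 21.9 to 26.5 in the 6 Ctrl mice and 17.1 to 21 in the 6 SAAR mice, without overlap. Over the alternatives 0 to 4 assembly factors were called higher and 0 to 1 lower. Called likewise were 0 to 1 translation factors, higher, and 0 to 2 synthetases, lower. The mitochondrial rRNAs were not tested.

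The mRNAs that the mitochondrial ribosome translates were lower on the SAAR diets. Averaged over fat, 9 of 13 were called lower and 0 higher. All 13 had a negative averaged difference, with a median log2 fold change of -0.39 over the list. Within a fat level fewer were called: 2 of 13 lower on regular fat (median -0.41) and 2 of 13 lower on high fat (median -0.36). On high fat 1 of the 13 had a positive difference. The libraries were poly(A)-selected, and how fully the selection captured these mRNAs was not tested. The CPM of mt-Nd4, a complex I subunit, were 5439, 5052 and 5605 in RF.Ctrl mice, 3905, 4028 and 3736 in RF.SAAR mice, 6046, 5974 and 6223 in HF.Ctrl mice and 4592, 4518 and 4093 in HF.SAAR mice. Every SAAR mouse was below every Ctrl mouse. The averaged difference was -0.47 ± 0.05 (adjusted p = 0.000255, edgeR). mt-Cytb of complex III fell by 0.39 ± 0.07 and mt-Nd6 by 0.43 ± 0.08 (adjusted p = 0.00345 and 0.00502), and the complex I mRNAs mt-Nd4l and mt-Nd2 fell by 0.62 ± 0.12 and 0.40 ± 0.08. Over the alternatives, 2 to 10 of the 13 were called lower and the median ran from -0.43 to -0.22. The fit without the 5 mice of highest acinar signal is among these alternatives.

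Regulators of mitochondrial biogenesis gave 4 calls of 17, all higher. Yy1, a factor known to bind promoters of mitochondrial genes, was at 57.2 to 59.5 CPM in the 6 Ctrl mice and 66.6 to 78.4 CPM in the 6 SAAR mice and rose by 0.34 ± 0.06 (adjusted p = 0.00442, edgeR). Ppargc1a, the coactivator PGC-1α, rose by 0.78 ± 0.16, Polrmt, the mitochondrial RNA polymerase, by 0.34 ± 0.08 and Esrra, a nuclear receptor partner of PGC-1α, by 0.37 ± 0.09 (adjusted p = 0.0111, 0.0223 and 0.0261). Ppargc1a overlapped between the arms, while Polrmt and Esrra did not. Within a fat level, Ppargc1a alone was called on high fat (1.18 ± 0.23, adjusted p = 0.0192, edgeR). On regular fat its groups overlapped (9.30 to 12.8 CPM in RF.Ctrl and 10.4 to 17.6 CPM in RF.SAAR mice). Yy1 alone was called there (0.37 ± 0.08, adjusted p = 0.0489, edgeR). Over the alternatives, including the fit without the 5 mice of highest acinar signal, 0 to 8 of the 17 were called higher.

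Of 16 genes of mitochondrial stress and quality control, 3 were called higher and 0 lower averaged over fat, and 13 had a positive difference. Atf5, a transcription factor of the mitochondrial unfolded protein response, ranged from 150.9 to 248 CPM over the Ctrl mice and from 390 to 623 CPM over the SAAR mice, and rose (1.28 ± 0.10, adjusted p = 7.01e-06, edgeR). Hspa9, the matrix HSP70 chaperone, rose by 0.46 ± 0.05 and Atf4 by 0.39 ± 0.11 (adjusted p = 0.000255 and 0.0387). The paper reports the rise of Atf4 and Atf5 in these livers as that of ATF4 target genes in the integrated stress response. Whether these calls reflect mitochondrial stress was not tested. Over the alternatives, the fit without the 5 mice of highest acinar signal among them, 1 to 9 of the 16 were called higher.

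The 77 cytosolic ribosomal proteins and the 78 respiratory chain subunits served as comparison. On high fat all 77 cytosolic ribosomal proteins had a positive SAAR difference, with a median of 0.41, and 4 were called (Rpl5, Rpl12, Rpl36a and Rpsa), where the members had a median of 0.013. Rpl5 ranged from 11.8 to 22.5 CPM and Rpl12 from 9.68 to 20.4 CPM over all mice, against 293 to 493 CPM for Rpsa. Sequence shared with other genes was not examined for this list. Without HF.Ctrl mouse 3 the median of the cytosolic ribosomal proteins was 0.25 (76 of 77 higher, 1 called) and without HF.SAAR mouse 2 0.27 (75 of 77, 1 called). Without HF.Ctrl mouse 2 it was 0.56 with 17 called, and 1 was called without HF.Ctrl mouse 1 or HF.SAAR mouse 1. On regular fat their median was 0.051 (59 of 77 higher) with 0 called, and that of the members -0.046. Averaged over fat all 77 cytosolic ribosomal proteins had a positive difference, with a median of 0.23. Of them 6 were called higher, Rpl13a among them, a share near the 7.29% of all genes called in that comparison. Over the alternatives 2 to 64 were called, the highest count with library size alone. Respiratory chain subunits had medians of -0.11 on regular fat and 0.043 on high fat, the second turning to -0.075 without HF.Ctrl mouse 3 and to -0.099 without HF.SAAR mouse 2. Among them only Sdha, the flavoprotein subunit of complex II, was called in the averaged comparison (-0.24 ± 0.06, adjusted p = 0.0187). Over the alternatives 0 to 5 respiratory chain subunits were called higher and 0 to 1 lower. Their median ran from -0.11 to 0.13, and the 5 and the highest median came with library size alone. The difference between the lists was not tested.

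**Figure D5:**
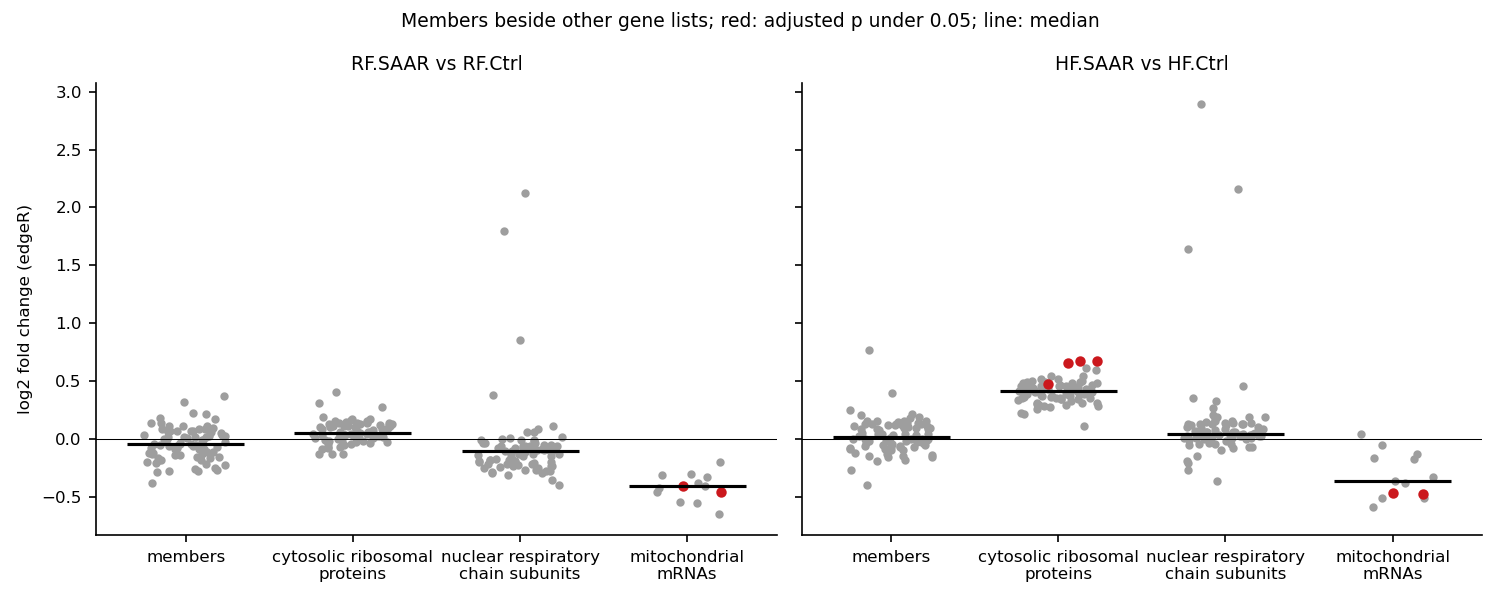
Log2 fold change of single genes in the members and in 3 comparison lists, for SAAR against Ctrl on regular fat and on high fat; the line is the list's median and red points were called at an adjusted p under 0.05 in edgeR. Members centre on -0.046 and 0.013, cytosolic ribosomal proteins on 0.051 and 0.41, and mitochondrial mRNAs on -0.41 and -0.36.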

How the data were processed

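Poly(A)-selected liver RNA of 12 mice (3 a group, grouped by the labels) was sequenced as paired ends. The authors checked reads with FastQC, trimmed them with cutadapt and quantified them against the Ensembl 94 transcriptome with kallisto. The deposited values per transcript and mouse are estimated counts, TPM, and effective lengths. Here, 116816 of 118489 listed transcripts matched GENCODE M21 (GRCm38) with the same version; 1673 (1.08% of counts) did not and were left out. Estimated counts and TPM were summed per gene, and counts were rounded. Genes with a mean of at least 10 counts were fitted with edgeR 4.0.16 (R 4.3.3): TMM factors, robust quasi-likelihood fit, 4 group coefficients over all 12 mice, Benjamini-Hochberg adjustment over 13967 genes, called at an adjusted p under 0.05. SE is the absolute log2 fold change over the square root of F, and intervals are 95%. DESeq2 1.42.0, on the same rounded counts and without offsets for transcript length, was an alternative. The authors also used DESeq2, but loaded the kallisto output with tximport, so their fit was not repeated here. Mean log2 deviations used 0.1 added to CPM or TPM. Nothing says more of the mice than their group, so p-values measure the spread between these mice; the number of mice and 16203094 to 21230092 counts per mouse limit the precision.

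Named are the 3 higher and 3 lower members of smallest p in each of 7 comparisons, the 5 highest and 5 lowest by TPM, 8 members with a role or place of their own, and called genes of the lists (up to 5 per direction). Members, classes and lists were chosen with earlier results of these data known.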

Additional observations from a re-analysis of the deposited data

How the results depend on the processing

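No paired analysis was run, because each mouse ate 1 diet and nothing in the labels links mice across groups. Each comparison of single groups was recomputed under 22 alternatives and each of the others under 21. The fit without the 5 mice of highest acinar signal was chosen after seeing the data and leaves HF.Ctrl and HF.SAAR with 1 mouse each, assumed to vary like the other groups. In the averaged SAAR comparison 1 member, Mrpl15, was called under RLE size factors, no low-count filter, coding transcripts only, DESeq2 and the acinar covariate. With library size alone 13 of 78 were called, all higher, beside 15.8% of all genes higher, and 1 (Mrpl15) in RF.SAAR against RF.Ctrl and in HF.SAAR against HF.Ctrl, beside 2.62% and 4.63%. The member medians were then 0.17, 0.12 and 0.19, against 0.163, 0.164 and 0.167 for all genes. Leaving out 1 mouse gave 0 to 1 called in the averaged comparison (Mrpl15 without RF.SAAR mouse 1 or HF.Ctrl mouse 2, Mrpl44 without RF.SAAR mouse 2, Mrpl32 without HF.SAAR mouse 2) and 0 in the others. Without the 5 mice, the median for HF.Ctrl against RF.Ctrl was -0.13, Mrpl10 in HF.SAAR against HF.Ctrl turned to 0.019 and Mrps6 in HF.Ctrl against RF.Ctrl to -0.23. With coding transcripts only, summed member TPM averaged 2379 in RF.Ctrl, 2714 in RF.SAAR, 2185 in HF.Ctrl and 2838 in HF.SAAR mice. Of 151 recomputed member medians 25 had the other sign, with the acinar covariate in 6 of the 7 comparisons or without a single mouse among others, and 126 kept theirs. Of the differences of named members 904 kept their direction and 2 did not. Unless stated, the cause was not tested. The precision of 3 mice a group is given by the 95% intervals, and differences within them were not excluded.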
